A study of Mus musculus with 2 samples.

Results

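The genes described here encode the translation initiation and elongation factors, the proteins that start and extend protein synthesis on the ribosome. They were chosen by symbol: every gene of the table whose name begins with Eif1 to Eif6, Eef1 or Eef2, without Eif2s3x, Eif2s3y, Eif2ak2, Eif2ak3 and Eif2ak4. This gave 61 genes of 22020 symbols in the table, each represented by its transcript with the highest mean. RNA was sequenced from LSK cells of 8-week-old C57BL/6 mice, which are blood-forming cells sorted as negative for lineage markers and positive for c-Kit and Sca-1, the fraction that holds blood stem cells and early progenitors. There was 1 library from p53 KO mice and 1 from Utx/p53 DKO mice, so both groups lack the tumour suppressor p53 and the DKO also lacks Utx (Kdm6a), a histone H3 demethylase. The sources used here do not state the tissue sorted, how the alleles were deleted, in which cells, or whether animals were pooled. With 1 library per genotype no test was possible, no difference below has a replicate check, and intervals cover counting error only.

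Initiation begins when eIF2 carries the initiator tRNA to the small ribosomal subunit, held there by eIF3, eIF1, eIF1A and eIF5. The mRNA is recruited through its cap by eIF4E, the scaffold eIF4G and the helicase eIF4A, and eIF5B joins the large subunit. Elongation then runs on eEF1A, which brings aminoacyl-tRNAs, its exchange factor eEF1B, and eEF2, which moves the ribosome along. Blood stem cells are known for a low rate of protein synthesis, and the pathway is controlled mainly through phosphorylation of eIF2 and eEF2 and through the 4E-binding proteins, none of which an RNA level can show.

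Most of these genes stood at similar levels in both libraries. Of the 61, 58 reached a mean of 1 RPKM (reads scaled by transcript length and by library size) over both libraries and count as measured. On the log2(RPKM + 1) scale 0 of these lay past a 2-fold bound above the p53 KO level in DKO cells, and 2 lay past it below, namely Eef2k and Eif2c1 (3.45%). Among all 11356 measured genes, 6.60% were higher and 13.5% lower by this rule, 20.1% together. The shares were 6.98% and 11% for genes averaging 5 RPKM or more. They were 8.79% and 7.49% for the 3286 genes averaging 20 RPKM or more, a level that 42 of the 58 reach. Relative to the median of all measured genes, 2 members (Eif3f and Eif4g3) were higher and 1 (Eef2k) lower by the same rule, with 9.63% and 8.76% of all measured genes. The members' median log2 difference, DKO minus p53 KO, was -0.13, against -0.24 over all measured genes and -0.06 over the genes averaging 20 RPKM or more. The 42 members of that level had a median of -0.07. At 5 RPKM or more the median was -0.10 for 54 members and -0.18 for 7623 genes. At 100 RPKM or more it was 0.16 for 13 members and 0.28 for 645 genes. The members' median thus lay above that of the genes at the cutoffs of 1 and 5 RPKM, and not at 20 or 100. Levels were not matched within a cutoff. The quartiles were -0.36 and 0.14 for the members and -0.68 and 0.21 for all measured genes. In bulk RNA, fewer cells of a type and less RNA per cell cannot be told apart.

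**Figure D1:**
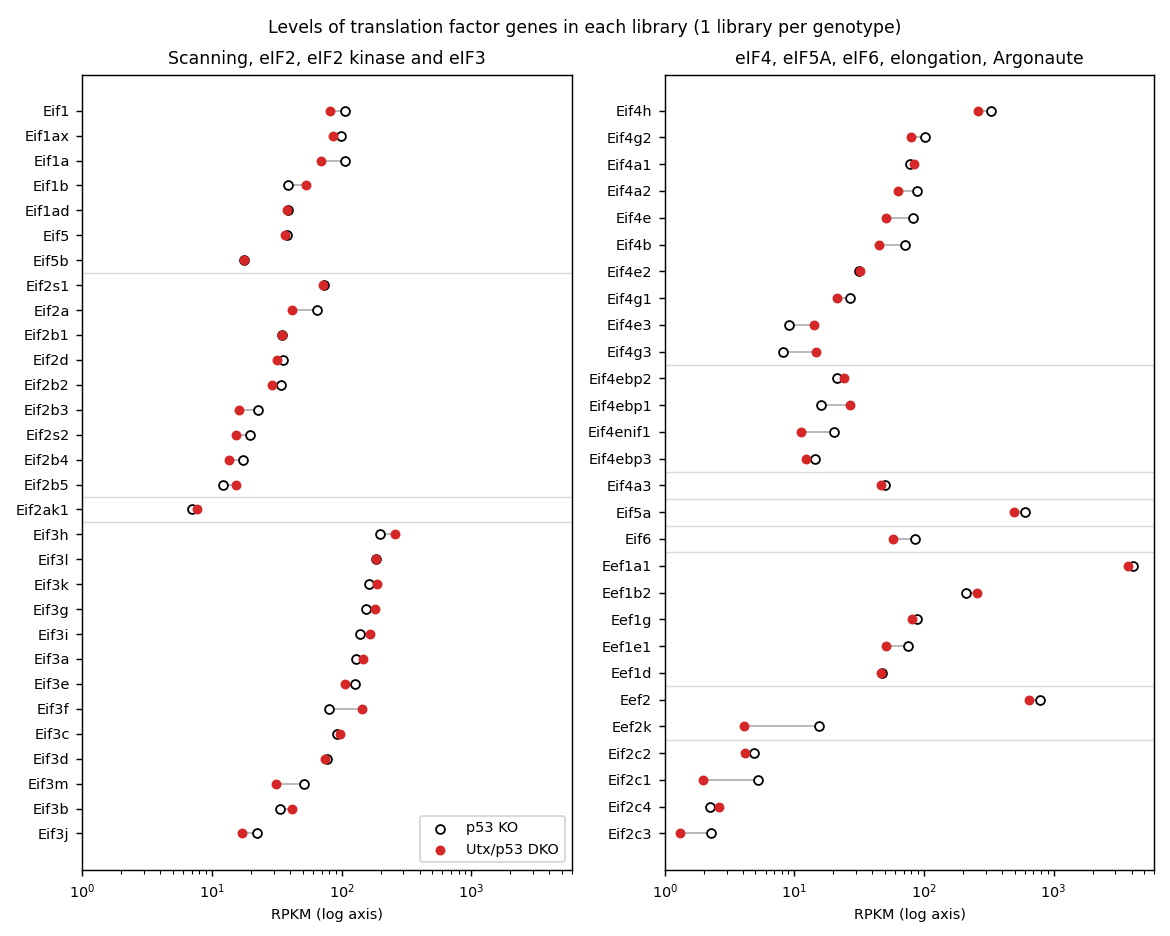
RPKM (log axis) of the 58 measured members in the p53 KO library (open circles) and the DKO library (red), grouped by role and ordered by level, with 1 library per genotype. Most pairs of circles overlap or lie close, and the widest gap is that of Eef2k, at 15.4 against 4.11 RPKM.

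The 2 libraries differed far more in other genes. Kdm6a was at 5.32 RPKM in p53 KO and 1.26 in DKO cells (ratio 0.236, 95% interval 0.193 to 0.287), and Trp53 transcripts were present in both (19.4 and 12.9), so a deletion of exons cannot be read from them. The read totals in the file's header were 17088105 (p53 KO) and 19926294 (DKO). All 14 of 14 granulocyte and monocyte markers examined were at least 2-fold higher in the DKO library, and they held 1.79% of the summed RPKM in p53 KO and 16% in DKO cells, with none at 0. Of the 6 stem and progenitor markers all 6 were at least 2-fold lower, with summed RPKM of 562 and 81.4. Of the sort markers Kit was at 64.2 and 16 RPKM and Ly6a (Sca-1) at 255 and 281. Each of the 6 measured erythroid, 5 measured B cell and 4 lymphoid progenitor markers was at least 2-fold lower, with summed RPKM of 1246 and 144, 249 and 47.5, and 267 and 8.59, and Epor alone was at 0 in DKO cells. Of the 4 measured T cell markers 2 were higher and 1 lower by 2-fold, with summed RPKM of 21.1 and 44.5. The part of these marker differences in the members' values was not tested.

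How the libraries are scaled decides the sign of most members. The median of all measured genes was -0.24 with the deposited RPKM, -0.55 with equal sums of RPKM, -0.10 with upper-quartile scaling and 0.28 with the authors' gfold constants, under which 72.5% rather than 32.9% of the called genes were higher. The members' median moved with it, to -0.48, 0.03 and 0.47. Under the 5 scalings compared, including centring, it stayed between 0.07 and 0.19 above the median of all measured genes. Those genes were not matched to the members in abundance, and at cutoffs of 20 or 100 RPKM the members' median was not above that of the genes with the deposited RPKM. Of the 58 members, 15 kept 1 sign throughout. The share of all measured genes that did so was not computed, so this count does not set the members apart. The 6 that stayed above 0 were Eif1b, Eif3f, Eif3h, Eif4e3, Eif4ebp1 and Eif4g3, although Eif3h was at 0.00 to 2 decimals with equal sums. The 9 that stayed below 0 were Eef2k, Eif1a, Eif2a, Eif2c1, Eif2c3, Eif3m, Eif4b, Eif4e and Eif4enif1. Differences of the other 43 are given as values on the deposited scale, and their sign turned under 1 or more of the other scalings.

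**Figure D2:**
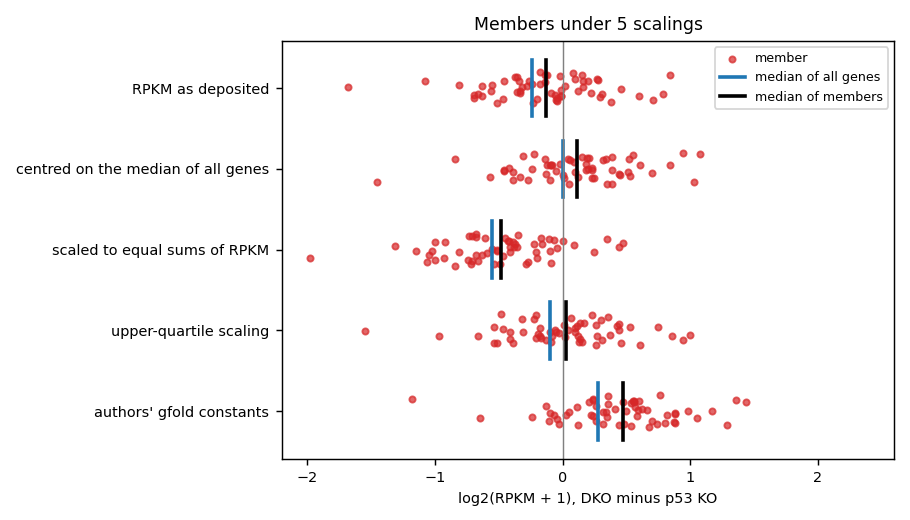
The log2(RPKM + 1) difference, DKO minus p53 KO, of each measured member (red points, spread vertically to separate them) under 5 scalings, with the median of the members (black) and of all measured genes (blue). The whole cloud shifts with the scaling, from a member median of -0.48 with equal sums to 0.47 with the authors' gfold constants, and the members' median lies right of the blue line in each row.

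Among the factors of scanning and start codon choice, Eif1 and Eif1b, which encode near-identical small proteins that guard start codon selection, did not keep their proportion. Eif1 was at 106 RPKM in p53 KO and 81.8 in DKO cells (ratio 0.770, 95% interval 0.724 to 0.819). Eif1b was at 38.4 and 53.2 RPKM (ratio 1.38, 95% interval 1.25 to 1.54). The share of Eif1b in their sum was 26.6% in p53 KO and 39.4% in DKO cells, a quantity that does not depend on the scaling. Eif1a and the X-linked Eif1ax, which encode forms of the tRNA-positioning factor eIF1A, were at 107 against 68.9 and 98.3 against 86.4 RPKM. The ratio of Eif1a was 0.644 (95% interval 0.618 to 0.671). Eif1ad, named for its eIF1A-like domain, was at 38.4 and 37.7 RPKM. Eif5, the GTPase activator of eIF2, stood at 37.8 and 36.5, and Eif5b, the subunit joining factor, at 17.8 and 17.7, and the 95% intervals of all 3 ratios include 1. Eif1 and Eif1a have close copies elsewhere in the genome, and the sources used here do not state how reads with several matches were handled.

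The 9 genes grouped as eIF2 and its exchange factor eIF2B, with Eif2a and Eif2d counted among them, had a median log2 difference of -0.23. Eif2s3x and Eif2s3y were left out by the choice of symbols, so the group does not cover every eIF2 subunit. The median of all genes was -0.24. For genes averaging 20 RPKM or more, a level that not all of this group reach, it was -0.06. Eif2s1, the alpha subunit whose phosphorylation slows initiation, was at 73.2 and 71.3 RPKM (ratio 0.974, with a 95% interval that includes 1). Eif2s2, the beta subunit, was at 19.6 and 15.4 RPKM. The 5 subunits of eIF2B, which reloads eIF2 with GTP, did not share 1 ratio. Eif2b1 was at 34.8 and 34.5, Eif2b2 at 34 and 28.8, Eif2b3 at 22.8 and 16.3, and Eif2b4 at 17.3 and 13.5 RPKM. Eif2b5, the catalytic subunit, was the lowest of the 5 in the p53 KO library, at 12.1 RPKM, and stood at 15.2 in the DKO library (ratio 1.26, 95% interval 1.13 to 1.41). The 95% interval of Eif2b3 was 0.634 to 0.807, so those of Eif2b3 and Eif2b5 do not overlap. Eif2a, a separate factor that can deliver the initiator tRNA without eIF2, was at 64.5 and 41.3 RPKM (ratio 0.640, 95% interval 0.603 to 0.680), while Eif2d, another such factor, was at 35.2 and 31.8. The haem-regulated eIF2 kinase gene Eif2ak1 was at 6.97 and 7.63 RPKM, with a 95% interval of the ratio of 0.946 to 1.27.

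The eIF3 genes had the highest median among the role groups with more than 4 measured members. eIF3 is the largest initiation factor, a complex that coats the small ribosomal subunit. All 13 subunit genes were measured, with a median log2 difference of 0.16, and 10 of the 13 lay above the median of all genes, as did 35 of all 58 members and, by definition, 50% of all genes. The sign of the median turned with equal sums of RPKM (-0.22). The 645 genes that averaged 100 RPKM or more, a level that 8 of the 13 reach, had a median of 0.28. Summed over the 13 genes, eIF3 was at 1451 and 1631 RPKM (ratio 1.12). The RPKM of all genes in the table summed to 361030 and 468247, a larger rise than that of eIF3. The sum of all 61 members had a ratio of 0.921, but Eef1a1 alone made up 4121 of 9217 RPKM in p53 KO and 3750 of 8484 in DKO cells.

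The largest positive difference of any member was that of Eif3f, a subunit of the octameric core. It was at 79.7 RPKM in p53 KO and 144 in DKO cells (2053 and 4313 reads, ratio 1.8, 95% interval 1.71 to 1.90). Its log2 difference of 0.84 exceeded that of 91.4% of all measured genes. Eif3h, its partner with a related fold in the core, was at 199 and 259 RPKM (ratio 1.3, 95% interval 1.25 to 1.35). Eif3b, which scaffolds the part of the complex near the mRNA entry, was at 33.4 and 41.1 (ratio 1.23), and its partners Eif3i and Eif3g were at 138 against 167 and 155 against 180. Eif3k stood at 162 and 186, Eif3a, the largest subunit, at 130 and 145, and Eif3c at 91.7 and 96.9 RPKM. Eif3l (184 and 183) and the cap-binding subunit Eif3d (77.7 and 74.5) had 95% intervals that include a ratio of 1.

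Against these stood Eif3e, Eif3j and Eif3m. Eif3e was at 127 and 107 RPKM, and Eif3j, the loosely bound subunit, at 22.3 and 17.1. Eif3m, a core subunit, was at 50.9 and 31.1 RPKM (ratio 0.611, 95% interval 0.556 to 0.671), the lowest ratio of the complex. The ratio of Eif3f to Eif3m levels was therefore not the same in the libraries, since their intervals lie far apart. The order of levels within the complex stayed much the same, from Eif3h at the top to Eif3j at the bottom in both libraries (Spearman's rho 0.973 over 13 genes of the same 2 libraries, a description). Eif3e and Eif3j have further copies in the genome (processed copies of Eif3e, and the near-identical Eif3j2), so their values are uncertain.

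Several members are known as TOP mRNAs, which carry an unbroken run of C and T letters at the very start of the transcript and are translated under control of mTOR. Of the 9 known TOP members all were measured: Eef1a1, Eef1b2, Eef1d, Eef1g, Eef2, Eif3e, Eif3f, Eif3h and Eif4b. Their median log2 difference was -0.12, close to the -0.13 of all members, with a range from -0.66 (Eif4b) to 0.84 (Eif3f). Another 6 TOP genes outside the family had a median of 0.36, among them Gnb2l1 (Rack1, 1191 and 1600 RPKM) and Tpt1 (109 and 179 RPKM). Naca (58 and 57.8) and Nap1l1 (35.6 and 36 RPKM), also of the 6, had ratios near 1. All measured genes averaging 100 RPKM or more, a level that not all 6 reach, had a median of 0.28. The start sequences of the 5 such members in the RefSeq promoter table (GRCm38.p6) are shown because the element that defines this class lies at the start of the transcript. Each runs 5′ to 3′ on the gene's strand over 30 bases, 15 before and 15 from the annotated start on, and capitals mark its longest unbroken run of C or T letters, or the first of equally long runs, as in Eef2.
Eif3f, chr7:108934400-108934429, plus strand: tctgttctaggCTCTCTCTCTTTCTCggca
Eef1a1, chr9:78481710-78481739, minus strand: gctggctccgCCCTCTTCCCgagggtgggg
Eif4b, chr15:102073758-102073787, plus strand: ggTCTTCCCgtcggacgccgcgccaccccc
Eef1b2, chr1:63176816-63176845, plus strand: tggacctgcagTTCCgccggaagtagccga
Eef2, chr10:81176616-81176645, plus strand: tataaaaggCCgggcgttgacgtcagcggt
Eif3f showed a run of 15 letters and Eef1a1 a run of 10, both across the annotated start. The longest runs of Eif4b, Eef1b2 and Eef2, of 7, 4 and 2 letters, lay wholly before the annotated start and so outside the annotated transcript. A run of at least 10 letters, a length chosen after the sequences were seen and searched on the gene's strand alone, was found for 6 of 47 member genes with an entry (12.8%) and for 6.25% of all 27025 genes with one. The other members with such a run were Eif2b5, Eif3l, Eif4e and Eif4enif1, whose log2 differences were 0.31, -0.01, -0.69 and -0.81. Members with such a run thus ranged from -0.81 (Eif4enif1) to 0.84 (Eif3f). The annotated start can differ from the start used in these cells, so the absence of a run in the window says nothing of the transcript itself.

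**Figure D3:**
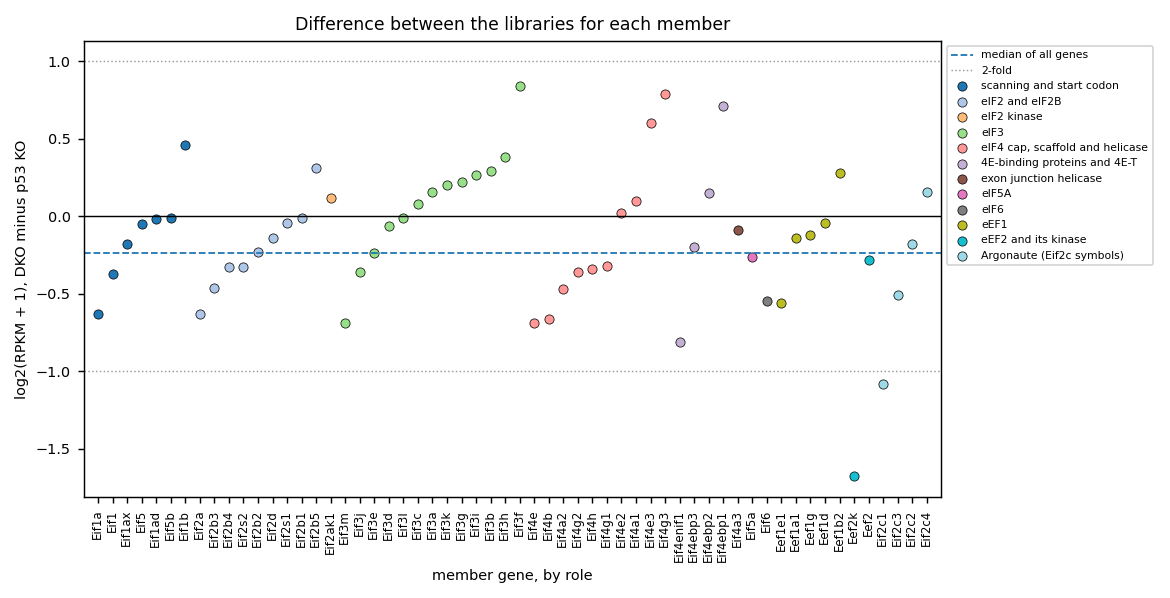
The log2(RPKM + 1) difference, DKO minus p53 KO, of each measured member, ordered by role and, within a role, by value, with 0 (solid line), the median of all measured genes (dashed, -0.24) and the 2-fold bounds (dotted). The eIF3 genes run from -0.69 (Eif3m) to 0.84 (Eif3f), and Eef2k and Eif2c1 lie below the lower bound.

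In the cap-binding and scaffold group, the least abundant gene of the Eif4e set and of the Eif4g set made up a larger share of its set in DKO cells. Eif4e, the main cap-binding protein, was at 83.1 RPKM in p53 KO and 51 in DKO cells (ratio 0.614, 95% interval 0.585 to 0.644). Eif4e2, a relative that represses translation, was at 31.6 and 32. Eif4e3, the third cap-binding relative, was at 9.13 and 14.3 RPKM (ratio 1.57, 95% interval 1.39 to 1.78). Of the summed level of these 3 genes Eif4e held 67.1% in p53 KO and 52.4% in DKO cells, and Eif4e3 7.37% and 14.7%. The oocyte-type gene Eif4e1b had 0 and 3 reads and was not measured.

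Eif4g1, the main scaffold, was at 27.1 and 21.5 RPKM, and Eif4g2 (Dap5), which lacks the eIF4E-binding part, at 102 and 79.4. Eif4g3, the second full-length scaffold, was at 8.14 and 14.8 RPKM (767 and 1628 reads, ratio 1.82, 95% interval 1.67 to 1.99), the highest ratio of all measured members. Its share of the summed level of the 3 genes was 5.91% in p53 KO and 12.8% in DKO cells. Of the helicases, Eif4a1 was at 77.6 and 83.4 RPKM and Eif4a2 at 87.8 and 63, so Eif4a2 held 53.1% of their sum in p53 KO and 43% in DKO cells. The helicase cofactors Eif4b and Eif4h were at 72 against 45.3 and 331 against 261 RPKM, and the ratio of Eif4b was 0.628 (95% interval 0.601 to 0.656). Eif4a3, the helicase of the exon junction complex rather than of initiation, was at 49.7 and 46.7 RPKM. The median of the 10 measured genes of this group was -0.33.

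The genes that restrain eIF4E also split. Eif4ebp1, a 4E-binding protein that mTOR inactivates and that the stress factor Atf4 can induce, was at 16 RPKM in p53 KO and 26.7 in DKO cells (268 and 522 reads, ratio 1.67, 95% interval 1.44 to 1.94). Eif4ebp2 was at 21.5 and 24 and Eif4ebp3 at 14.4 and 12.4 RPKM. The interval of Eif4ebp3 includes 1, but it rests on the fewest of many possible read counts and may be too wide. The 3 genes summed to 51.9 RPKM in p53 KO and 63.1 in DKO cells, against 83.1 and 51 for Eif4e itself. Eif4enif1 (4E-T), which carries eIF4E into the nucleus and into P-bodies, was at 20.4 and 11.2 RPKM (ratio 0.551, 95% interval 0.504 to 0.602). The 4 transcripts of Eif4enif1 in the table had log2 differences from -0.81 to -0.79.

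The elongation factors Eef1a1 and Eef2 were the most abundant members in both libraries. Eef1a1 was at 4121 and 3750 RPKM (ratio 0.910, at least 34786 and 36918 reads), and with it the members held 2.55% of the summed RPKM in p53 KO and 1.81% in DKO cells. Without Eef1a1 the shares were 1.41% and 1.01%. Eef1a2, the form of muscle and nerve, had 0 reads in both libraries, and a count of 0 allows up to 3 reads. Of the eEF1B exchange complex, Eef1b2 was at 210 and 255 RPKM (ratio 1.22, 95% interval 1.18 to 1.25), Eef1g at 88.3 and 81.3, and Eef1d at 47.9 and 46.4. Eef1e1, which despite its name is part of the tRNA synthetase complex, was at 75.8 and 51 RPKM. Eef2 was at 793 and 651 RPKM (ratio 0.821, 95% interval 0.807 to 0.835). Its log2 difference was -0.28, beside medians of -0.24 for all genes and 0.28 for those averaging 100 RPKM or more. Eif5a, which helps ribosomes past proline stretches and carries the amino acid hypusine, was at 598 and 499. Its relative Eif5a2 was at 0.914 and 0.794 RPKM, just under the measured range, whose lowest member by mean was Eif2c3. Eif6, which keeps free large subunits from joining, was at 85 and 57.8 RPKM. Processed copies of Eef1a1, Eif4a1 and Eif5a exist in the genome, so part of their reads may be split.

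The largest difference of any member was that of Eef2k, the calcium-dependent kinase that inhibits eEF2. Eef2k was at 15.4 RPKM in p53 KO and 4.11 in DKO cells (810 and 252 reads, ratio 0.267, 95% interval 0.231 to 0.308). Its log2 difference was -1.68, and 3.49% of all measured genes had a lower value. It was at least 2-fold lower under each of the 5 scalings, with values from -1.98 with equal sums to -1.18 with the authors' gfold constants. The kinase gene and its target thus had ratios of 0.267 and 0.821. The neighbours of Eef2k on chromosome 7, 25 measured genes on either side, had a median of -0.33.

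The 4 Argonaute genes, which carry the older Eif2c symbols, matched the name rule but bind small RNAs rather than act in initiation. Eif2c1 (Ago1) was at 5.27 and 1.98 RPKM (636 and 278 reads, ratio 0.375, 95% interval 0.324 to 0.432), a log2 difference of -1.08. That of Eif2c1 was -0.84 relative to the median of all genes, so its call at 2-fold is lost with centring. Eif2c3 (Ago3) was at 2.28 and 1.31, Eif2c2 (Ago2), the form that cuts its targets, at 4.87 and 4.18, and Eif2c4 (Ago4) at 2.25 and 2.62 RPKM. Eif2c1 held 35.9% of their summed level in p53 KO and 19.6% in DKO cells.

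**Figure D4:**
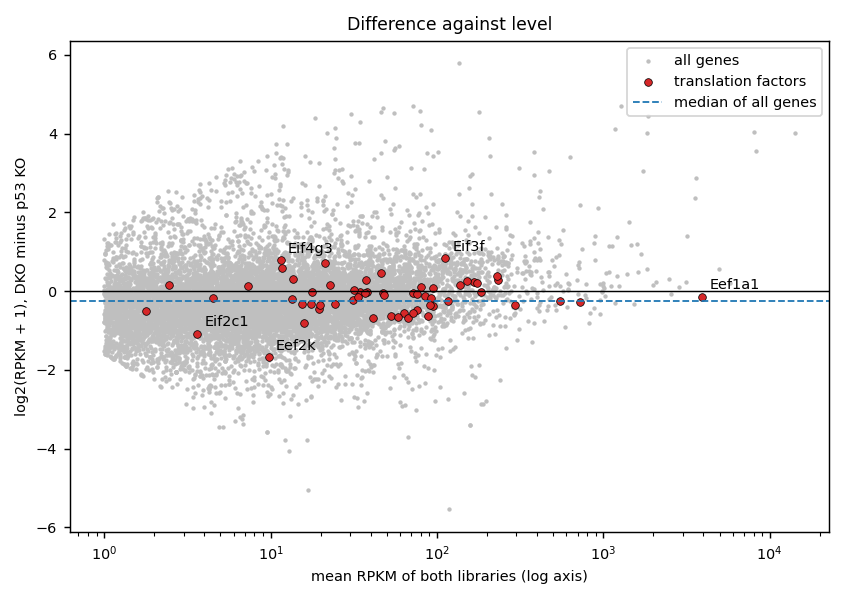
The log2(RPKM + 1) difference, DKO minus p53 KO, against the mean RPKM of both libraries (log axis) for all measured genes (grey) and the measured members (red), with the median of all genes dashed. Eef2k, Eif2c1, Eif3f, Eif4g3 and Eef1a1 are named, and apart from Eef2k and Eif2c1 the members lie within 2-fold of 0 while grey points spread far above and below them.

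With a 1.5-fold bound on the log2(RPKM + 1) scale, 4 members were higher and 8 lower, or 6.90% and 13.8% of the 58. Among all measured genes the shares were 13% and 29.6%. Eif2c3, with an RPKM ratio of 0.575 (95% interval 0.478 to 0.69), was at -0.51 on that scale and did not reach the bound. The 4 higher were Eif3f, Eif4g3, Eif4ebp1 and Eif4e3, and the 8 lower were Eef2k, Eif2c1, Eif4enif1, Eif4e, Eif3m, Eif4b, Eif2a and Eif1a. In the authors' deposited table the log2 fold change was at least 1 for 5 members, these same 4 and Eif1b (8.62%, against 19.6% of all measured genes), and at most -1 for Eef2k alone (-1.3, 1 of 58, against 8.85%). The GFOLD value of the authors' deposited table, a log2 fold change drawn towards 0 where reads are few, was above 0 for 46 members (79.3%, against 54.5% of all measured genes). It was below 0 for 4 members, Eef2k (-1.06), Eif2c1 (-0.57), Eif4enif1 (-0.11) and Eif4e (-0.02), or 6.90% against 22.9%. These shares carry the gfold constants, with which 49 members lay above 0, against 19 with the deposited RPKM. With the deposited RPKM that is 32.8% of the members, near the 34.8% of all measured genes above 0. Members were also more abundant, with a median of 50.3 RPKM in p53 KO against 9.61 for all measured genes. The part of scaling and level in these shares was not tested.

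Chromosome and transcript length moved with some of these values. By accession in the GRCm38.p6 RefSeq table, the 4 measured members on chromosome 2 were Eif2s2, Eif3j, Eif3m and Eif6, with log2 differences of -0.33, -0.36, -0.69 and -0.55, all below the median of all genes. The 854 measured genes of chromosome 2 had a median of -0.64, while the medians of the other autosomes and the X lay between -0.36 and -0.08. Each of the 4 stood above the median of its 50 nearest measured neighbours, and these medians were -0.88, -0.78, -0.81 and -0.96. Eif3j and Eif3m were also the 2 eIF3 genes with the lowest ratios. Without chromosome 2 the members' median was -0.07. Measured genes with transcripts shorter than 1500 bases had a median of 0.07, those of 2500 bases or longer -0.36, and the members of these lengths 0.06 (12 genes) and -0.19 (18 genes). Only transcripts whose length was recovered with 1 solution enter these medians, which leaves out Eef1a1, Eef2 and Eif5a among other members. The part of chromosome and length in the members' values was not tested.

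Other genes of translation and its control, 60 measured of a list of 61, had a median of -0.31. Of these, 1 was higher and 8 were lower by 2-fold or more on the log2(RPKM + 1) scale (background 6.60% and 13.5%). The 1 higher gene was Pdcd4, which blocks the helicase eIF4A, at 74.3 and 220 RPKM (2958 and 10234 reads, ratio 2.97, 95% interval 2.85 to 3.09). The poly(A)-binding protein gene Pabpc1 was at 90.1 and 111 RPKM, while its inhibitors Paip2 (304 and 143) and Paip2b (8.15 and 3.50) were at least 2-fold lower and its coactivator Paip1 was at 61.7 and 32.3. The P-body helicase gene Ddx6 was at 39.7 and 17.5 RPKM.

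Of the 12 genes of the TOR pathway 1 was at least 2-fold lower on the log2(RPKM + 1) scale, the TOR inhibitor gene Ddit4 (3.82 and 1.13 RPKM). Mlst8 was at 10.7 and 5.15 RPKM (ratio 0.483, 95% interval 0.422 to 0.553), but its log2(RPKM + 1) difference of -0.92 did not reach the bound. Mtor itself was at 2.93 and 2.31, and Larp1, which binds TOP mRNAs, at 19.5 and 12.8. Among the 10 genes of the integrated stress response, the pathway that runs through eIF2 phosphorylation, 5 lay above 0 and 5 below. Of all measured genes 34.8% lay above 0. On the log2(RPKM + 1) scale 0 were at least 2-fold higher and 3 lower, beside 6.60% and 13.5% of all measured genes. The 3 lower were the kinase gene Eif2ak2 (20.2 and 8.56), the phosphatase subunit gene Ppp1r15a (17.1 and 7.64) and the pseudokinase gene Trib3 (3.14 and 0.391 RPKM). The kinase gene Eif2ak4 was at 2.71 and 0.961 RPKM (ratio 0.355, 95% interval 0.276 to 0.454), and its log2(RPKM + 1) difference of -0.92 did not reach the bound. Atf4, the transcription factor of this response, was at 80 and 88.7 and its target Ddit3 at 11.7 and 12 RPKM. Atf5 was at 2.55 and 4.7 RPKM (ratio 1.85, 95% interval 1.41 to 2.44). Ppp1r15b was at 3.45 and 4.68, Eif2ak3 at 1.48 and 1.84, and Gcn1l1 at 7.71 and 4.83 RPKM. Dph2, of the enzymes that make the diphthamide of eEF2, was at 10.8 and 4.81 RPKM, and the hypusine enzymes Dhps and Dohh were at 5.89 against 6.86 and 5.88 against 6.95. The mitochondrial factors had a median of -0.32, with the elongation factor gene Tufm at 30 and 23.6 RPKM. None was past 2-fold on the log2(RPKM + 1) scale, although Gfm2, a ribosome recycling factor gene, was at 7.67 and 3.34 RPKM (ratio 0.435, 95% interval 0.367 to 0.514).

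**Figure D5:**
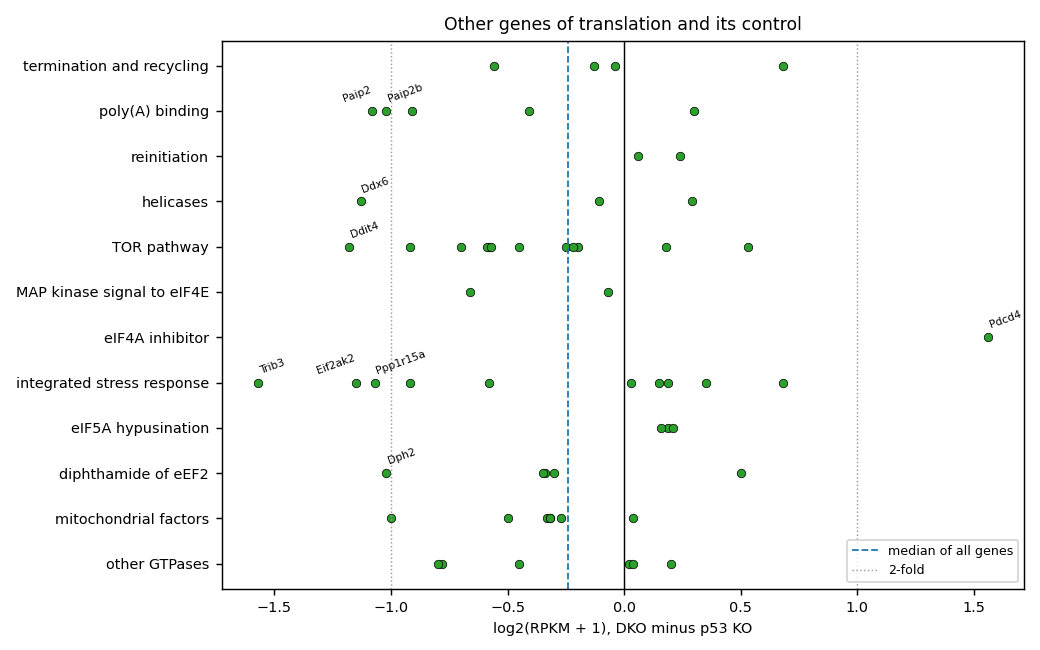
The log2(RPKM + 1) difference, DKO minus p53 KO, of 60 other genes of translation and its control in 12 groups (green points), with 0 (solid), the median of all measured genes (dashed) and the 2-fold bounds (dotted). Genes past 2-fold are named: Pdcd4 lies at 1.56, and 8 genes lie below -1, with Trib3 the lowest at -1.57.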

How the data were processed

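RNA-seq of LSK cells was analysed from 1 p53 KO and 1 Utx/p53 DKO library, grouped by genotype label. Libraries were made from SMART cDNA, per the labels' protocols, with 50 ng RNA each, per the series' design text. Tools named in the submitters' processing notes are TopHat2 2.1.0 and bcl2fastq 1.8.4, with the build mm9. Per the file headers, gfold 1.1.4 wrote the table. The authors gave RPKM for 28344 transcripts, assigned to libraries by the order in the header, with a log2 fold change, a log2 GFOLD value and a q-value (E-FDR) that was 1 in every row. Counting rules and strandedness are not given in the sources used here.

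Values were compared as log2(RPKM + 1), which understates changes of low genes, for genes averaging 1 RPKM or more. A difference of 2-fold on that scale was the call, with no test. Members and lists were chosen with earlier results of these data known. All members at least 2-fold different, the most abundant and most different of each role, and paralog sets were to be named. Whole reads were recovered by finding the transcript length at which both RPKM are whole within rounding: 1 solution for 96% of the 24644 transcripts with reads and for 48 of 61 members. For 12 members with several solutions the fewest reads were used, which widens intervals. Ratio intervals are exact (Clopper-Pearson) at 95%. The recovery was tested on simulated data. Python 3.11.15, pandas 2.3.3 and scipy 1.17.1 were used. Other scalings, pseudocounts, filters and fold rules were tried as alternatives.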

Additional observations from a re-analysis of the deposited data

How the results depend on the processing

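The count of members at least 2-fold higher, 0 with the deposited RPKM, was 2 after centring on the median of all genes, 5 with the authors' gfold constants and 4 with a 1.5-fold rule. It stayed 0 in the other settings tried. The count at least 2-fold lower, 2, was 6 with equal sums of RPKM and 8 with the 1.5-fold rule. It was 1 with a pseudocount of 5, a mean of at least 5 RPKM, centring, upper-quartile scaling, the gfold constants, a 3-fold rule or without the Argonaute genes, and 0 with a mean of at least 20 RPKM, since Eef2k and Eif2c1 lie below that level. The members' median of -0.13 was 0.11 after centring, 0.03 with upper-quartile scaling, 0.47 with the gfold constants and -0.48 with equal sums, and it lay between -0.13 and -0.07 in the other settings tried. The filter at 20 RPKM and the setting without chromosome 2 were chosen after seeing the data. Eef2k and Eif2c1 kept their sign in each setting tried. No paired analysis was possible because each genotype has 1 library, which also leaves no replicate to leave out. Measured members had at least 251 (p53 KO) and 199 (DKO) reads, and the counting interval of the ratio included 1 for 13 of the 58. That count may be too high, since some of these intervals rest on the fewest of several possible read counts. The spread between mice was not measured.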
